A study of Homo sapiens with 22 samples.

Results

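The genes described here are 9 genes of the interferon pathway: STAT2, IRF9, IRF1, EIF2AK2, OAS3, IFIT5, ISG15, IFI6 and IFI27. They were followed in a BRIC-Seq experiment on ZNF598, an E3 ubiquitin ligase that marks collided ribosomes and is also known from other work as a factor that restrains interferon-stimulated genes. The genes were chosen by name. Each deposited row is a transcript, and for each gene the row annotated as protein coding with the highest mean count over the libraries of 0 to 10 h was used. All 9 genes had such a row, among 59732 genes that the rows could be matched to. A mean of at least 1 CPM (counts-per-million of all counts in a library) was required for testing, which 6 of the 9 genes reached and ISG15 (0.474 CPM), IRF1 (0.694 CPM) and IFI27 (0.0873 CPM) did not. IRF9, with 1.02 CPM, stood just above this limit, and IRF1 was the nearest below it.

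The cells were HEK293T, a line from human embryonic kidney. They carried a short hairpin RNA that was either a control (shControl) or directed against ZNF598 (shZNF598), and no interferon or virus is named in the labels. In BRIC-Seq, cells take up bromouridine (BrU) into new RNA and are then chased in medium without it. Both arms were labelled for 24 h with 150 µM BrU, and RNA was pulled down with an anti-BrdU antibody at 0, 2, 4, 6 and 10 h of chase (2 libraries per shRNA and time) and at 24 h (1 library per shRNA). The labels do not say that replicate libraries came from separate cultures, so p-values measure the spread between these libraries only.

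When interferon binds its receptor, the kinases JAK1 and TYK2 phosphorylate STAT2, which joins IRF9 in a complex that binds a DNA element called the interferon-stimulated response element (ISRE) in front of target genes. IRF1 is a related transcription factor whose own gene is switched on through another element, GAS. Among the targets, EIF2AK2 (protein kinase R) and OAS3 (an oligoadenylate synthetase) respond to double-stranded RNA, IFIT5 binds RNA 5′ ends, ISG15 is a ubiquitin-like modifier, and IFI6 and IFI27 are small membrane proteins of the 6-16 family.

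The promoters and 3′ UTRs of the genes are shown first because they carry the sequence features by which the family is usually recognised. Promoter windows of 300 bases (250 before to 50 after the start site) were taken from RefSeq (GRCh38.p14), where all 9 genes matched. The start in that table is not always the start of the counted row. IFI27 had 2 promoters there, of which only the first by position was searched. The counted IFI27 row starts upstream of that window, at chr14:94104836. The ISRE core was searched as GAAANNGAAA on both strands. It was found in 6 of the 9 promoters, against 3.57% of 35116 promoters in the table. The first match in each is shown with the core in capitals, in the direction of transcription, and is the reverse complement where it lies on the opposite strand (IFI27 and IFIT5).
ISG15: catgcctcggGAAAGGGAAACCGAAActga
IFI6: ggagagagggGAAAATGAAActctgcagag
IFI27: atgtctgcagTTTCGGTTTCctggaaaatg
EIF2AK2: agtccaagggGAAAACGAAActgagaacca
OAS3: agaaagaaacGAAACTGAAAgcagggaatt
IFIT5: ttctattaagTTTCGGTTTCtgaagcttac
These windows lie at chr1:1013374-1013403 (plus strand) for ISG15, chr1:27672329-27672358 (minus) for IFI6, chr14:94110618-94110647 (plus) for IFI27, chr2:37156967-37156996 (minus) for EIF2AK2, chr12:112938321-112938350 (plus) for OAS3 and chr10:89414513-89414542 (plus) for IFIT5. In ISG15 the capitals hold 2 overlapping matches.

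The promoters of STAT2, IRF9 and IRF1, the transcription factors of the group, held no such match in this window. A GAS core, searched as TTCNNNGAA, was found in IRF9, IRF1 and IFI27 and in 7.66% of all promoters. The windows of the 2 transcription factors are shown with the GAS core in capitals, at chr14:24161192-24161221 (plus strand) for IRF9 and chr5:132490878-132490907 (minus) for IRF1. A match is a string of letters and not a measured binding site.
IRF9: accacgtgatTTCTGGGAAaaggccctccc
IRF1: acagcctgatTTCCCCGAAatgacggcacg

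The knockdown was checked before the interferon genes. The ZNF598 transcript ENST00000562103.2 had 3.97 to 8.37 CPM in the 10 shControl libraries of 0 to 10 h and 0.411 to 1.05 CPM in the 10 shZNF598 libraries, with no overlap at any chase time. Its log2 level averaged over 0 to 10 h was lower by −3.05 (SE 0.087, edgeR quasi-likelihood test, adjusted p = 1.17e-18). Total counts ranged from 52352359 to 96963584 in these 20 libraries. Replicate libraries were further apart than counting noise in all 10 groups of 2 (chi-square over its degrees of freedom 3.67 to 28.48), and furthest in shControl at 0 h. Of 7 markers of this cell line, 5 reached 1 CPM (vimentin at 126 CPM in shControl and 142 CPM in shZNF598), while PAX2 and SOX11 were near 0. Markers of leukocytes summed to at most 0.14 CPM in any library and those of plasmacytoid dendritic cells, a main source of interferon, to at most 0.0249 CPM. Hepatocyte markers summed to at most 0.0804 CPM. Fibroblast markers summed to 0.97 to 3.42 CPM in shControl and 0.707 to 3.1 CPM in shZNF598, with COL1A1 at a mean of 1.07 and 1.0 CPM and COL3A1 at 0.699 and 0.471 CPM, and their part in the results was not tested. Libraries were scaled by TMM, which brings the bulk of every library to a common level, so a slope of 0 on the log2 scale means loss as fast as the bulk of labelled RNA. In bulk RNA, fewer cells with a transcript and less of it per cell cannot be told apart.

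At the end of labelling, the 9 transcripts spanned a wide range of levels. Per kilobase of transcript, over the 4 libraries of 0 h (2 per shRNA), EIF2AK2 was highest with 2.66 ± 0.434 CPM per kb (SD, n = 4). The 4 libraries pool both arms, so these SDs and ranges also hold any difference between the arms. IFI6 had 1.69 ± 0.371, STAT2 1.67 ± 0.112 and IFIT5 1.24 ± 0.142 CPM per kb. The ranges of IFI6 and STAT2 overlapped, as did those of IFI6 and IFIT5, whereas all EIF2AK2 values (2.09 and above) were over the highest IFI6 value (2.05). Next in order were IRF9 (0.931 ± 0.0908 CPM per kb), ISG15 (0.697 ± 0.0608), IRF1 (0.397 ± 0.0302), OAS3 (0.273 ± 0.0646) and IFI27 (0.15 ± 0.0147), with no overlap between neighbours in this order. IFI27 rested on 2 to 13 counts per library of 0 to 10 h, and ISG15 on 18 to 68.

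**Figure D1:**
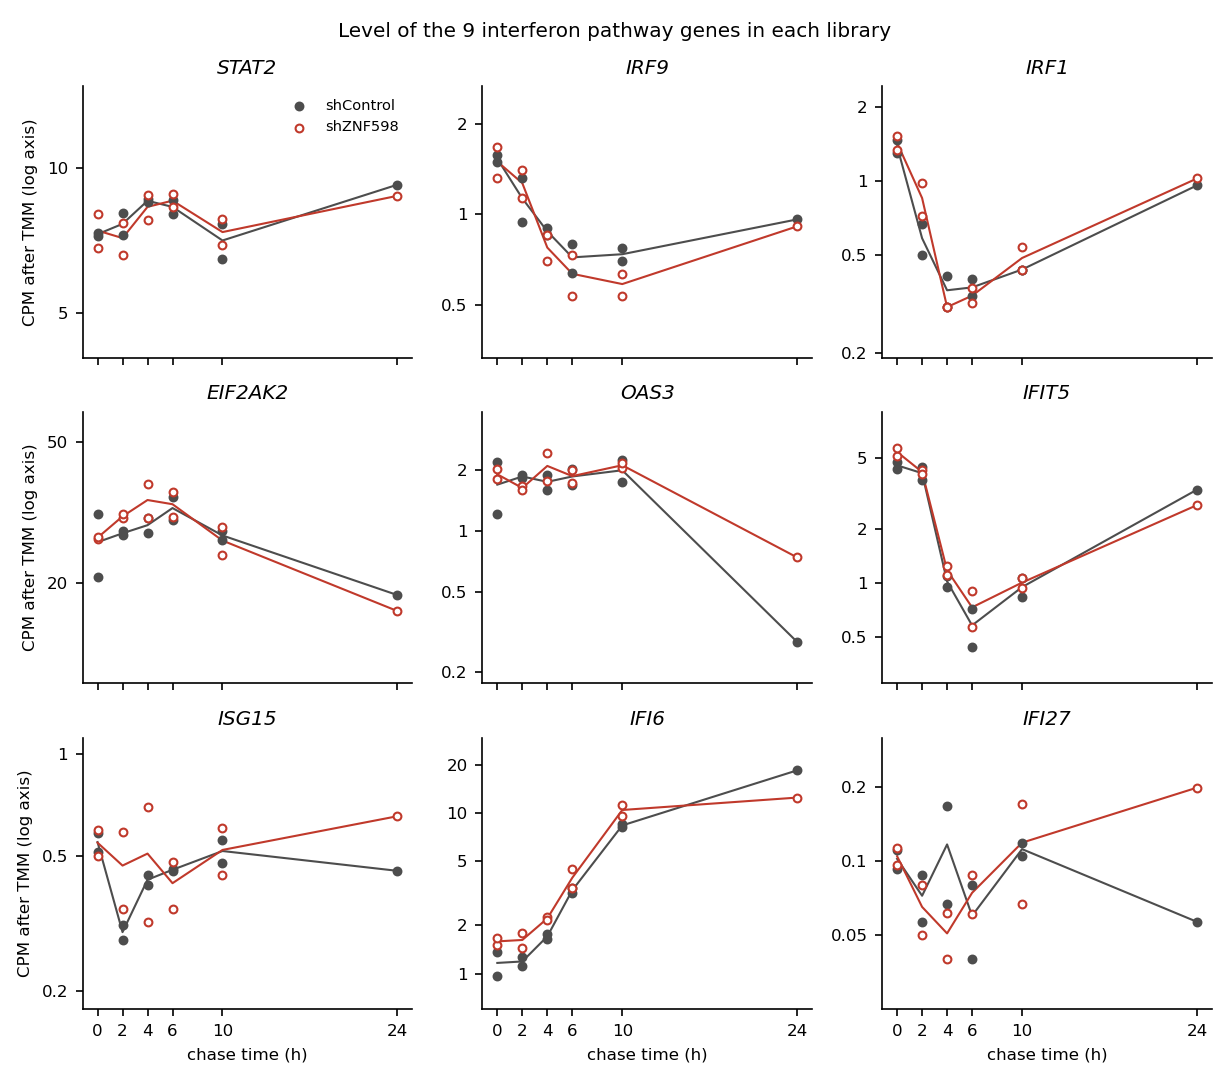
Each panel shows 1 gene, with chase time in hours on the x axis and CPM after TMM scaling on a log y axis. Points are libraries, filled grey for shControl and open red for shZNF598, and lines join the group means (n = 2 at 0 to 10 h, n = 1 at 24 h). IFI6 climbed, and IFIT5, IRF9 and IRF1 dropped within the first hours. STAT2, EIF2AK2 and OAS3 were near their first level at 10 h, with the means of STAT2 and EIF2AK2 highest at 4 or 6 h.

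Relative to the bulk of labelled RNA, the 6 tested genes followed 3 kinds of course. In shControl, 1 gene rose (IFI6) and 2 fell (IFIT5 and IRF9) with an adjusted p below 0.05, against 33.5% of all 79513 tested rows called higher and 40.8% called lower. In shZNF598 the same 3 genes were called in the same directions, against 32.7% of rows called higher and 38.5% called lower. The slopes of the other tested genes, STAT2, EIF2AK2 and OAS3, were within 0.021 log2 per h of 0 in both arms and were not called. Their direction depended on the scaling: with library totals in place of TMM the median slope of all rows moved from −0.018 to −0.088 in shControl and from −0.014 to −0.077 in shZNF598, and all 3 slopes became negative in both arms, while 17.3% of rows were called higher and 61.5% lower in shControl and 16.8% and 59.4% in shZNF598. With the same scaling IFI6 still rose and IFIT5 and IRF9 still fell.

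IFI6 (ENST00000361157.11, GRCh38, chromosome 1, 27666064 to 27672192, minus strand, 812 nt) codes for a membrane protein that counters cell death and viral replication. In shControl it had 0.961 and 1.37 CPM at 0 h, 1.27 and 1.11 at 2 h, 1.63 and 1.78 at 4 h, 3.18 and 3.43 at 6 h, and 8.52 and 8.26 at 10 h. In shZNF598 it had 1.51 and 1.66 CPM at 0 h, 1.79 and 1.45 at 2 h, 2.26 and 2.16 at 4 h, 3.41 and 4.50 at 6 h, and 11.3 and 9.65 at 10 h. Relative to the bulk of labelled RNA, IFI6 was therefore flat over the first 2 h and then increased in both arms. The mean at 10 h was 7.2-fold that at 0 h in shControl and 6.6-fold in shZNF598. The slope was 0.31 log2 per h (SE 0.024, adjusted p = 7.85e-10) in shControl and 0.29 (SE 0.024, adjusted p = 2.14e-09) in shZNF598. Only 0.049% of tested rows had a higher slope in shControl and 0.044% in shZNF598. Short transcripts had higher slopes in general: among 30510 tested rows under 1000 nt, 6.13% had a slope of at least 0.2 in shControl, against 0.954% of 19284 rows of 3000 nt or more, and the part of length in the IFI6 slope was not tested.

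IFIT5 (ENST00000371795.5, chromosome 10, 89414568 to 89420997, plus strand, 4029 nt) took the opposite course. In shControl it had 4.79 and 4.35 CPM at 0 h, 3.79 and 4.47 at 2 h, 1.09 and 0.947 at 4 h, 0.719 and 0.439 at 6 h, and 1.07 and 0.834 at 10 h. In shZNF598 it had 5.16 and 5.70 CPM at 0 h, 4.29 and 4.09 at 2 h, 1.11 and 1.25 at 4 h, 0.564 and 0.898 at 6 h, and 0.938 and 1.07 at 10 h. Most of the fall lay in a single step between 2 and 4 h, where the mean dropped 4.05-fold in shControl and 3.55-fold in shZNF598 with no overlap between the libraries of 2 and 4 h. The slope over 0 to 10 h was −0.28 log2 per h (SE 0.061, adjusted p = 2.97e-04) in shControl and −0.29 (SE 0.061, adjusted p = 2.28e-04) in shZNF598, although the course was not a straight line. Only 0.484% of tested rows had a lower slope in shControl and 0.255% in shZNF598.

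IRF9 (ENST00000396864.8, chromosome 14, 24161265 to 24166565, plus strand, 1626 nt), the DNA-binding partner of STAT2, fell more slowly. In shControl it had 1.57 and 1.49 CPM at 0 h, 1.32 and 0.941 at 2 h, 0.901 and 0.854 at 4 h, 0.799 and 0.638 at 6 h, and 0.699 and 0.774 at 10 h. In shZNF598 it had 1.67 and 1.32 CPM at 0 h, 1.41 and 1.14 at 2 h, 0.698 and 0.852 at 4 h, 0.533 and 0.734 at 6 h, and 0.536 and 0.635 at 10 h. The libraries of 4 h and later were all below those of 0 h in each arm. The slope was −0.11 log2 per h (SE 0.025, adjusted p = 5.30e-04) in shControl and −0.15 (SE 0.026, adjusted p = 3.01e-05) in shZNF598.

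IRF1 (ENST00000245414.9, chromosome 5, 132481609 to 132490773, minus strand, 3554 nt), a transcription factor known for a short-lived mRNA, was below the limit for testing and rested on 17 to 106 counts per library. In shControl it had 1.48 and 1.30 CPM at 0 h, 0.502 and 0.669 at 2 h, 0.412 and 0.307 at 4 h, 0.399 and 0.339 at 6 h, and 0.437 in both libraries at 10 h. In shZNF598 it had 1.53 and 1.34 CPM at 0 h, 0.722 and 0.985 at 2 h, 0.308 and 0.306 at 4 h, 0.366 and 0.318 at 6 h, and 0.436 and 0.537 at 10 h. The mean at 2 h was 2.37-fold lower than at 0 h in shControl and 1.68-fold lower in shZNF598. IRF1 had thus fallen further by 2 h than IFIT5 (1.11-fold in shControl and 1.3-fold in shZNF598). In a fit of all rows without the limit, its slope was −0.17 log2 per h (SE 0.046, adjusted p = 0.0039) in shControl and −0.18 (SE 0.046, adjusted p = 0.0021) in shZNF598, where 23.9% and 22% of 183249 rows were called lower. In that fit the slopes of ISG15 (0.022 in shControl and −0.0033 in shZNF598) and IFI27 (0.018 and 0.030) were not called.

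**Figure D2:**
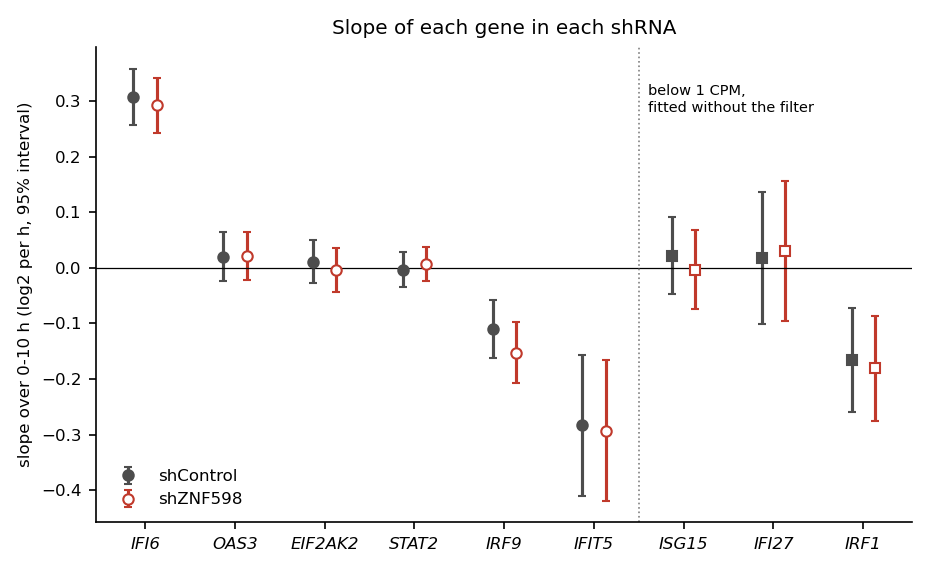
The y axis gives the slope in log2 per h over 0 to 10 h with its 95% interval, filled grey for shControl and open red for shZNF598. Circles are the 6 tested genes and squares the 3 genes below 1 CPM, from a fit without that limit; IFI6 is near 0.3 and IFIT5 near −0.3 in both arms, and the intervals of the arms overlap for each gene.

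The AU-rich pentamer ATTTA in 3′ UTRs is known from many short-lived mRNAs, so it was counted in the annotated 3′ UTR of each row (8 of the 9 rows had one of at least 20 bases). IRF1 and IFIT5 had 4 matches each, at 1.71 and 1.7 per kb. These densities were near the median of 1.78 per kb over 8986 genes with a tested coding row. IRF9, which also fell, had 0 matches in 369 bases, and EIF2AK2, which was not called in either arm over 0 to 10 h, had 22 in 8063 bases. At least 1 ATTTA was present in 75.2% of these 8986 genes. A window of each of the 2 genes with the steepest early drops is shown with the pentamers in capitals. The windows lie at chr5:132483266-132483295 (minus strand, GRCh38) for IRF1 and chr10:89418739-89418768 (plus) for IFIT5.
IRF1: ttggcctttgcATTTATTTAtacagtgcct
IFIT5: ttatagagctaatATTTAttgaatagttat
In IRF1, 2 pentamers overlap by a base. The IFIT5 window held only 1 pentamer, and a window of EIF2AK2 (not shown) held 2. The longer motif TTATTTATT was in none of the 8 rows, against 9.95% of the 8986 genes. Whether the pentamers bear on the loss of IRF1 or IFIT5 was not tested. STAT2, IFI6 and ISG15 had no match, and OAS3 had 1.

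At 10 h, STAT2, EIF2AK2 and OAS3 were near their level at 0 h relative to the bulk. STAT2 (ENST00000314128.9, chromosome 12, 56341597 to 56360107, minus strand) ranged from 6.48 to 8.80 CPM over the 20 libraries with a median of 7.81. EIF2AK2 (ENST00000233057.9, chromosome 2, 37099210 to 37156980, minus strand, 9975 nt) ranged from 20.8 to 38.1 CPM with a median of 29.5. Its means at 0, 2, 4, 6 and 10 h were 26.1, 27.7, 29.2, 32.6 and 27.3 CPM in shControl. In shZNF598 they were 26.9, 30.9, 34.3, 33.4 and 26.4 CPM. A straight-line slope does not show such a rise and fall. The means of STAT2 were also highest at 4 h in shControl (8.54 CPM) and at 6 h in shZNF598 (8.55 CPM). OAS3 (ENST00000228928.12, chromosome 12, 112938474 to 112973251, plus strand) ranged from 1.21 to 2.43 CPM with a median of 1.86. The lowest value of both EIF2AK2 and OAS3 was that of the same library, shControl replicate 2 at 0 h, where replicate 1 had 31.4 CPM of EIF2AK2 and 2.19 CPM of OAS3. The slopes in shControl and shZNF598 were −0.0030 and 0.0061 for STAT2, 0.011 and −0.0041 for EIF2AK2, and 0.020 and 0.021 log2 per h for OAS3.

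The knockdown was then compared with the control at each time. Averaged over 0 to 10 h, IFI6 was the 1 gene of the 6 tested that differed, against 22.4% of all tested rows (12.3% called higher). Its level was higher in shZNF598 by 0.37 on the log2 scale (SE 0.077, 95% interval 0.21 to 0.53, adjusted p = 0.0012), or 1.29-fold. Both shZNF598 libraries were above both shControl libraries at 0, 2, 4 and 10 h, and at 6 h the values 3.41 and 3.43 CPM of the 2 arms crossed. Such a separation at 4 or more of the 5 times was seen in 7.31% of tested rows. The difference was 0.44 at 0 h, 0.44 at 2 h, 0.37 at 4 h, 0.27 at 6 h and 0.32 at 10 h, and none of the 5 passed the threshold alone (adjusted p 0.249 to 0.445). At these times 0.407%, 0.746%, 1.4%, 2.29% and 3.23% of all tested rows were called. Without replicate 1 of every group the average difference was 0.31 with an adjusted p of 0.055.

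The other tested genes did not pass the threshold in this average. IFIT5 differed by 0.17 (95% interval −0.021 to 0.36, adjusted p = 0.20), EIF2AK2 by 0.085 (−0.048 to 0.22, adjusted p = 0.37) and OAS3 by 0.071 (−0.13 to 0.27, adjusted p = 0.64). For the 2 signalling factors the difference was −0.0029 for STAT2 (−0.12 to 0.11, adjusted p = 0.98) and −0.11 for IRF9 (−0.33 to 0.0999, adjusted p = 0.46). Without shControl replicate 1 at 0 h, EIF2AK2 differed by 0.15 with an adjusted p of 0.036. The median of the 6 genes was 0.078, against 0.020 over all tested rows. In the fit without the limit on low values, where 11.6% of rows were called, ISG15 differed by 0.18 (−0.087 to 0.45, adjusted p = 0.52), IRF1 by 0.080 (−0.18 to 0.34, adjusted p = 0.93) and IFI27 by −0.19 (−0.84 to 0.46, adjusted p = 0.94).

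At 0 h alone, the level after 24 h of labelling, edgeR called 0 of the 6 genes, against 0.407% of all tested rows. One of the 6, IFI6, had an unadjusted p below 0.05, and DESeq2 also called 0. ISG15, the gene most often read as a sign of an interferon response, had 0.515 and 0.585 CPM in shControl and 0.595 and 0.50 CPM in shZNF598 at 0 h, so the arms overlapped. At 2 h it had 0.314 and 0.284 CPM in shControl and 0.589 and 0.349 CPM in shZNF598, with both shZNF598 libraries the higher (1.57-fold in the means, adjusted p = 0.566 in the edgeR fit without the limit). At 4, 6 and 10 h the arms overlapped, with means of 0.426, 0.456 and 0.518 CPM in shControl and 0.509, 0.416 and 0.521 CPM in shZNF598. Separations at single times went both ways among the other genes. Both shZNF598 libraries were the higher at 1 time for IRF1 and at 2 times each for EIF2AK2 and IFIT5. They were the lower at 1 time each for OAS3 and IFI27 and at 2 times for IRF9. The share of all rows with such a separation at a single time is not given here. At 0 h, IFI27 had 0.111 and 0.0930 CPM in shControl and 0.0965 and 0.113 CPM in shZNF598, from 6 to 8 counts per library.

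**Figure D3:**
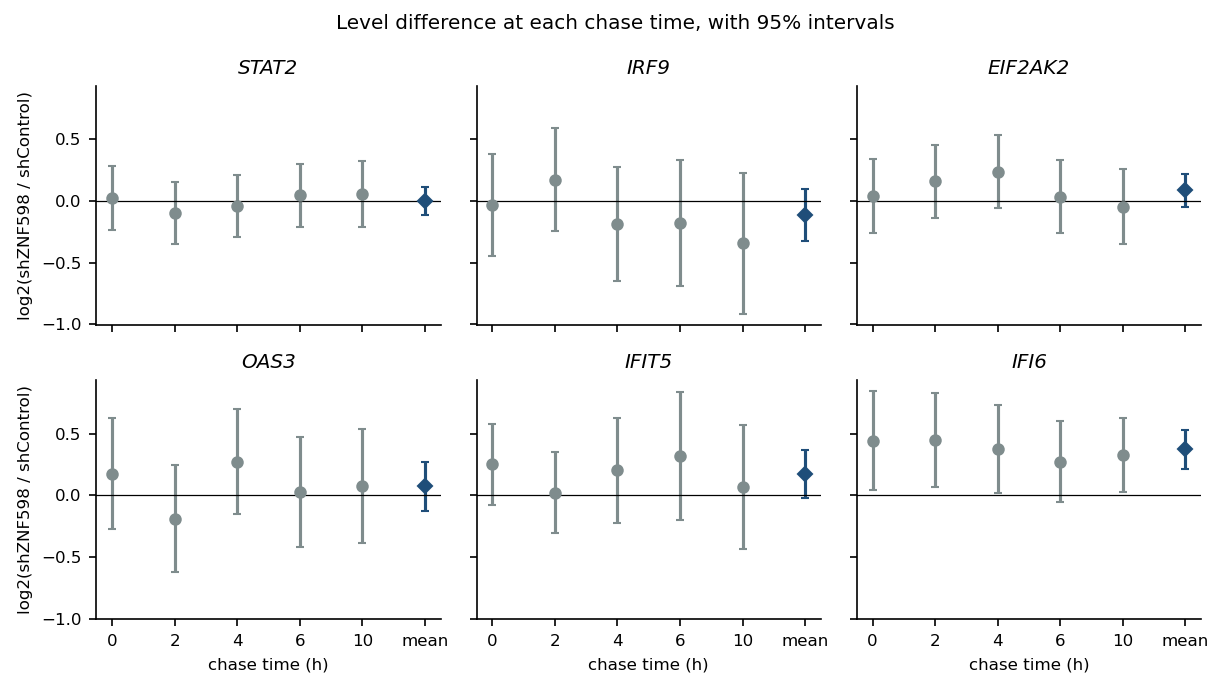
Each panel shows 1 of the 6 tested genes, with chase time on the x axis and the log2 ratio of shZNF598 to shControl on the y axis with 95% intervals. Grey circles are single times (2 libraries per arm) and blue diamonds the average over 0 to 10 h; the diamond of IFI6 at 0.37 is the 1 average whose interval lies wholly above 0.

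The difference in slope asks whether the knockdown changed how fast a transcript was lost. It was called in 0 of the 6 genes by edgeR, against 0.116% of all tested rows. None of the 6 had an unadjusted p below 0.05. DESeq2 called 0 of the 2 genes for which it gave an adjusted p, and gave none for the others. The difference, shZNF598 minus shControl, was −0.016 log2 per h for IFI6 (95% interval −0.089 to 0.057), −0.0097 for IFIT5 (−0.19 to 0.17) and −0.043 for IRF9 (−0.12 to 0.033). It was −0.015 for EIF2AK2 (−0.070 to 0.040), 0.00067 for OAS3 (−0.061 to 0.062) and 0.0091 for STAT2 (−0.034 to 0.053). The interval of IFIT5 was the widest of the 6 and that of STAT2 the narrowest.

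The libraries of 24 h, 1 per arm, did not enter the main tests. At 24 h ZNF598 itself stood at 4.86 CPM in the control library and 2.39 CPM in the knockdown library, 0.492 times the shControl level, against 0.0707 to 0.205 times in the means of 0 to 10 h, so the arms differed less in the targeted gene at this time. IFI6 had 18.5 CPM in shControl (95% exact Poisson interval 16.5 to 20.6) and 12.5 CPM in shZNF598 (11.4 to 13.7), so at this time the shControl library was the higher. These intervals cover counting error only. IFIT5, at about 1 CPM at 10 h, had 3.34 CPM in shControl and 2.74 in shZNF598, and IRF1 had 0.962 and 1.03 CPM. There were 3635 tested rows with a slope in shControl of −0.2 or lower. Of these, 93% were higher at 24 h than at 10 h in shControl and 92% in shZNF598. Over all 79513 tested rows the values were 53.3% and 53.5%. The 3635 rows were picked partly by low values at 10 h, so part of such a rise can come from that choice. IFIT5 was among them, and IRF1, below the limit for testing, was not. OAS3 had 5 counts (0.283 CPM) in shControl and 26 (0.741 CPM) in shZNF598 with overlapping intervals (0.0918 to 0.66 and 0.484 to 1.09 CPM), and EIF2AK2 had 18.5 and 16.7 CPM, both below every library of 0 to 10 h. With the 24 h libraries in the edgeR fit, the slope of EIF2AK2 in shZNF598 was −0.035 log2 per h and was called (adjusted p = 0.042). That in shControl was −0.022 (adjusted p = 0.198). The slope difference was called for 0 of the 6 genes in that fit, so these values do not show that the arms differed. The fit rests on 1 library per arm at 24 h. The 24 h libraries were the shallowest, with 21220829 and 40157613 counts.

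Other tested transcripts could be compared for IFI6, EIF2AK2 and STAT2. All 3 IFI6 rows were tested, with slopes of 0.308 in shControl and 0.291 to 0.294 in shZNF598 and average differences of 0.369 to 0.385, but they share most of their sequence and hence their reads. The 6 tested EIF2AK2 rows, from 845 to 9975 nt, had slopes of −0.025 to 0.011 in shControl and −0.037 to −0.0020 in shZNF598, and the 18 tested STAT2 rows had slopes of −0.032 to 0.0040 and −0.026 to 0.012. None of these EIF2AK2 and STAT2 rows was called for a slope, a slope difference or the average level. Rows of the same gene overlap in sequence and reads here too, so they are not independent of each other. IFIT5, OAS3 and IRF9 had 1 tested row each. In the annotation, 93.1% of the IRF9 row is shared with exons of a second gene model on the same strand (ENSG00000259529), and 26.6% of the IFI6 row with LINC02574, so their reads cannot be fully told apart.

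Among genes with 1 row each, the course most like that of IFIT5 over the 20 libraries was that of USP38 (Pearson r of log2 CPM 0.989). For EIF2AK2 it was ABI2 (r = 0.945), for IRF9 ZNF195 (0.938), for STAT2 TMEM144 (0.81) and for OAS3 DOCK5 (0.777). None of these 5 genes is in the lists of interferon genes used here. Within the group, IFIT5 and IRF9 had r = 0.9, and IFI6 had −0.671 with IFIT5 and −0.738 with IRF9. The 20 libraries share their chase times and depths, so these correlations describe the time course and carry no test.

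A list of 85 other genes of the pathway was examined beside the 9. Of 8 interferon genes themselves, 6 had 0 counts in all 20 libraries, including IFNB1, IFNG and IFNL1, which allows a level of up to 0.00215 CPM over the pooled libraries, and the highest total was 12 counts. All 6 receptor chains were tested, and 40 of the 85 genes in all. In shZNF598, 9 of the 40 were higher and 2 lower in the average over 0 to 10 h, against 12.3% and 10.1% of all tested rows, and the median difference was 0.063 against 0.020 over all rows. The largest increases were those of SAMD9 (0.40, SE 0.085, adjusted p = 0.0015), an antiviral factor, IL10RB (0.38, SE 0.066, adjusted p = 1.76e-04), a receptor chain for interferon lambda, and UBE2L6 (0.38, SE 0.079, adjusted p = 0.0012), the conjugating enzyme of ISG15. The decreases were those of TAP1 (−0.31, SE 0.060, adjusted p = 6.11e-04), a peptide transporter, and IFI35 (−0.31, SE 0.094, adjusted p = 0.021). The call of IFI35 was lost without shZNF598 replicate 2 at 0 h, either replicate 2 at 2 h, or shZNF598 replicate 1 at 4 or 10 h (adjusted p 0.052 to 0.059), and without replicate 1 or 2 of every group (0.132 and 0.103). That of TAP1 was lost without replicate 2 of every group (−0.22, adjusted p = 0.056).

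By role, 2 of 6 receptor chains, 2 of 4 sensors and adaptors, 4 of 16 effectors and 1 of 4 genes of ISG15 conjugation were higher, 2 effectors were lower, and 0 of 6 kinases and factors and 0 of 4 inhibitors were called, against 12.3% of all rows called higher and 10.1% lower. For the difference in slope edgeR called 0 of the 40 genes, against 0.116% of all rows, with 1 at an unadjusted p below 0.05. For the level at 0 h it called 0, against 0.407% of all rows, with 6 at an unadjusted p below 0.05. DESeq2 called 0 of the 40 at 0 h, and for the slope difference 0 of the 26 for which it gave an adjusted p. In shControl 10 of the 40 rose and 21 fell, against 33.5% and 40.8% of all rows. In shZNF598 9 rose and 22 fell, against 32.7% and 38.5%, with median slopes in the arms of −0.066 and −0.055 log2 per h against −0.018 and −0.014 over all rows. Of the receptor chains, 5 of 6 fell in shControl and 6 of 6 in shZNF598. Per kilobase, in the unscaled mean over the 20 libraries of 0 to 10 h, the list was led by B2M (67.95 CPM per kb), the light chain of MHC class I, with ADAR (11.07), an RNA editing enzyme, and IFI30 (8.616), a lysosomal thiol reductase, next. This order pools the chase times, over which the shControl means moved from 28.56 CPM at 0 h to 156.7 CPM at 10 h for B2M, from 77.91 to 43.99 CPM for ADAR and from 5.02 to 22 CPM for IFI30, so it is not the order at 0 h. B2M was higher in shZNF598 by 0.23 (SE 0.044, adjusted p = 6.32e-04), while ADAR differed by 0.012 and IFI30 by −0.040 and neither was called. The call of B2M was lost without replicate 1 of every group (0.17, adjusted p = 0.235).

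**Figure D4:**
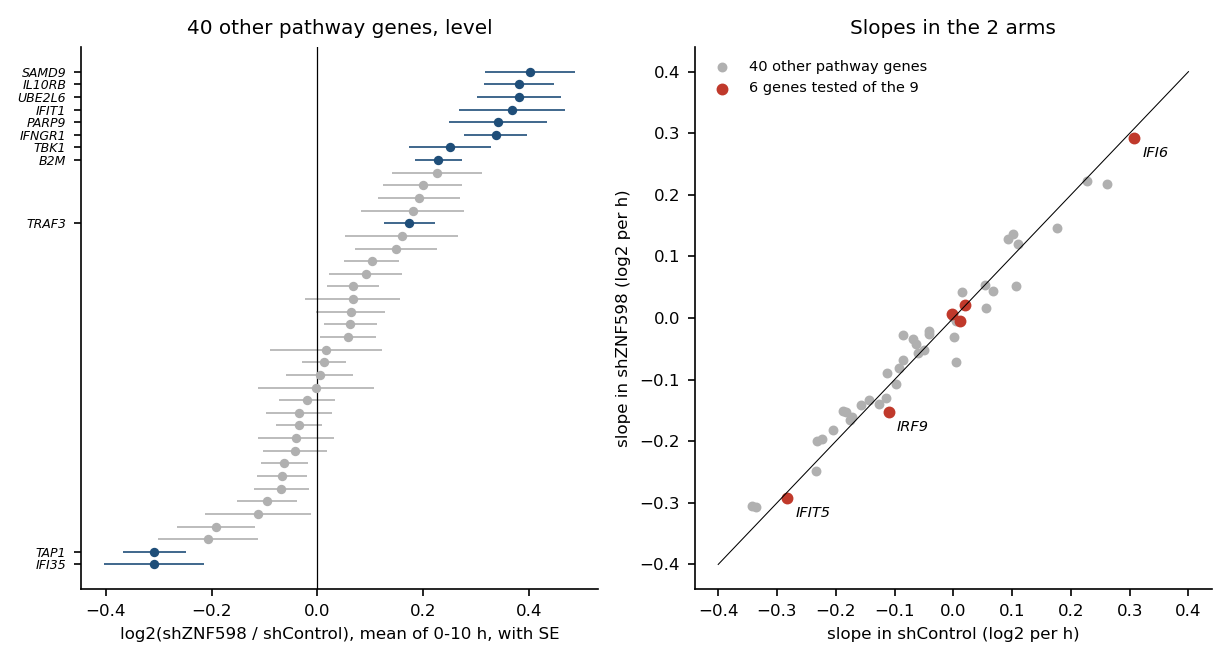
The left panel gives the log2 ratio of shZNF598 to shControl averaged over 0 to 10 h, with SE, for the 40 other pathway genes, in blue and with the gene's name where the adjusted p was below 0.05 (9 higher, 2 lower). The right panel plots the slope in shZNF598 against that in shControl in log2 per h for the same 40 genes (grey) and the 6 tested genes of the 9 (red), which lie near the line of equal slopes from IFIT5 at the lower left to IFI6 at the upper right.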

How the data were processed

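BRIC-Seq counts of 22 libraries were used. As the labels and the study's methods describe, RNA was sequenced after rRNA removal with a stranded kit (CASAVA 1.8 and STAR 2.7.0a in the processing notes), aligned to hg38 with GENCODE annotation and counted per transcript, and whether the counting used strand is not given in the sources used here. The deposited values are raw counts for 227264 transcript rows beside a whole number that the authors give in the same file and that equals the transcript length divided by 3. Rows were named with GENCODE 44 on the same assembly (98.4% matched, rows without a match holding 2.22% of counts).

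The genes and lists were chosen with earlier results of these data known. edgeR 4.0.16 quasi-likelihood tests in R 4.3.3 were run on all 79513 rows whose mean CPM in the 20 libraries of 0 to 10 h was 1 or more, with TMM scaling and Benjamini-Hochberg adjustment over all rows (threshold 0.05). Group means gave the level contrasts, and shRNA, hours and their product gave the slopes. SEs were computed as the size of a log2 change over the root of its F statistic. Functions were tested on simulated data. Levels in the text are CPM after TMM, except the means used for the 1 CPM limit and the CPM per kb of the other pathway genes, which are CPM of library totals, and correlations used log2(CPM + 0.5). The study's spike-in RNAs were not used, so slopes are relative and no half-life is given. The libraries of 24 h were scaled together with the others and stayed out of the main tests. They entered only 1 alternative fit of the slopes, over 0 to 24 h. Named genes were the 9, ZNF598, up to 3 listed genes per direction with the largest called change in each comparison, the 3 with the highest CPM per kb, and the most similar gene for each of the 9 that reached 1 CPM (that for IFI6 is not reported here). Alternatives covered scaling (DESeq2 1.42.0 size factors, library totals), filters, test, left-out libraries, the replicate number and the chase window.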

Additional observations from a re-analysis of the deposited data

How the results depend on the processing

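IFI6 stayed higher in shZNF598 in the average over 0 to 10 h under all alternatives run (0.307 to 0.428), and its call was lost without replicate 1 of every group. Of the 6 genes, 1 was called in this average, with 0 to 2 when libraries were left out (0 without replicate 1 of every group, 2 without shControl replicate 1 at 0 h) and 0 of the 2 genes left at a minimum of 5 CPM. Of the 40 other pathway genes 11 were called, with 4 to 16 when libraries were left out (4 without replicate 1, 7 without replicate 2) and 6 at 5 CPM. The 6 called at 5 CPM were of 24 such genes left at that minimum. In the main fit 22.4% of all tested rows were called, and the shares in the other settings are not given here. Without replicate 1 or 2 of every group, the average came from a fit of shRNA and chase time, and the level at 0 h from the fitted lines. TAP1 lost its call without replicate 2, B2M without replicate 1 and IFI35 without either. Slopes were called for 3 of 6 genes in each arm, against 6 in shControl and 5 in shZNF598 with library totals, 1 and 0 of the 2 genes left at 5 CPM, and 1 in shControl and 2 in shZNF598 with the 24 h libraries, where EIF2AK2 gained a call in shZNF598 (−0.0353, adjusted p = 0.0416). The counts for the level at 0 h and for the slope difference were 0 throughout.

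Replicate numbers were not taken to pair the libraries, since that needed an r above 0.1 at all 5 times and 3 of the 5 passed: deviations of same-numbered libraries of the 2 arms had a Pearson r of 0.009, 0.124, 0.368, 0.310 and −0.239 at 0, 2, 4, 6 and 10 h. With the replicate block, 1 of the 6 genes and 14 of the 40 others were called in the average level, against 1 and 11 in the main fit, and no other count changed. The share of all tested rows called with the block is not given here, so the 14 cannot be set against it.

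Some values changed sign under an alternative, and the cause was not tested beyond what each alternative changes. Not all of them stayed near 0. With library totals, edgeR called the reversed slopes of EIF2AK2 and OAS3 in shControl (adjusted p = 0.0285 and 0.0454). It also called that of STAT2 in shZNF598 (adjusted p = 0.0125). With library totals the change at 0 h was −0.0226 for STAT2 and −0.00829 for EIF2AK2, the average change of ADAR was −0.00544, and slopes in shControl were −0.0593 for EIF2AK2 and −0.0501 for OAS3 and in shZNF598 −0.0565 for STAT2 and −0.0418 for OAS3. With DESeq2 size factors the slope in shControl was 0.00882 for STAT2, that in shZNF598 0.00532 for EIF2AK2 and the slope difference of OAS3 −0.00196. With the DESeq2 test the same first 2 slopes were 0.0090 and 0.00533, and with 1 row per gene 0.00561 and 0.00303, with −0.00123 for the slope difference of OAS3. Without the filter, STAT2 had an average change of 0.00619 and a slope in shControl of 0.00223, and OAS3 a slope difference of −0.00198. At 5 CPM the slope was −0.0176 for STAT2 in shZNF598 and −0.0159 for EIF2AK2 in shControl. The 0 h libraries alone gave −0.0113 for STAT2, and the next coding row of EIF2AK2 −0.0604 at 0 h. Over 0 to 4 h the slope difference was −0.00733 for STAT2 and 0.0576 for EIF2AK2, the slope of STAT2 in shControl 0.0469 and that of EIF2AK2 in shZNF598 0.0871. Over 0 to 6 h these 2 slopes were 0.0343 and 0.0535, with slope differences of 0.00322 for EIF2AK2 and 0.0142 for IFIT5. Over 2 to 10 h the slope was −0.00641 for STAT2 in shZNF598 and −0.00574 for EIF2AK2 in shControl, and the slope difference of IFIT5 0.00453. With the 24 h libraries the slope difference of STAT2 was −0.000799, slopes in shControl were 0.00805 for STAT2, −0.0216 for EIF2AK2 and −0.0648 for OAS3, and that of OAS3 in shZNF598 −0.0420.

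With libraries left out, values that changed sign ranged as follows. The change at 0 h ran from −0.133 to 0.137 for STAT2, −0.209 to 0.127 for IRF9, −0.223 to 0.367 for EIF2AK2 and −0.195 to 0.658 for OAS3. The average change ran from −0.0405 to 0.0260 for STAT2, −0.169 to 0.0176 for IRF9, −0.0204 to 0.168 for OAS3, −0.00737 to 0.0278 for ADAR and −0.114 to 0.0156 for IFI30. The slope difference ran from −0.00804 to 0.0236 for STAT2, −0.0568 to 0.0223 for EIF2AK2, −0.0200 to 0.0210 for OAS3, −0.0610 to 0.0651 for IFIT5 and −0.0473 to 0.00551 for IFI6. The slope in shControl ran from −0.0198 to 0.0141 for STAT2, −0.0104 to 0.0356 for EIF2AK2 and −0.000114 to 0.0409 for OAS3, and in shZNF598 from −0.00175 to 0.0206 for STAT2 and −0.0212 to 0.0181 for EIF2AK2. The slopes of IFIT5 and IRF9 kept their sign throughout but were not called with the 24 h libraries, and those of IFI6 were not called over 0 to 4 h (0.129 and 0.121).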
